A study of Drosophila melanogaster with 31 samples.

Results

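The cytoplasmic ribosomal protein genes encode the proteins that, with ribosomal RNA, make up the small and large subunits of the ribosome of the cytosol. Every growing cell transcribes them strongly and in roughly balanced amounts, so they are often taken as a steady background against which other genes are read. Here they were followed in cells of *Drosophila melanogaster* embryos that had been sorted by a reporter for *atonal* (*ato*), the proneural gene of the stretch-receptive chordotonal organs. A gene was taken as a member when a probe set naming it alone had a symbol that begins RpL or RpS followed by a digit or P. By this rule 46 of 18769 probe sets belonged to the family, and they stood for 40 genes of the 11982 genes that a probe set named alone. Of 91 gene symbols of this form in the RefSeq gene table, 40 were measured as members. RpS28-like and the mitochondrial ribosomal proteins are outside the rule, and each gene was read from its probe set with the highest mean.

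The samples were FACS-sorted embryonic cells hybridised singly to 31 Affymetrix *Drosophila* arrays in 8 groups. Mutant embryos (atoGFP.7;ato(mutant);w118) gave GFP+ and GFP− cells at t1, which is 5.75 to 6.75 h after egg laying. Embryos with intact *ato* (atoGFP.7;w118, called wild type) gave both cell classes at t1, at t2 (6.75 to 7.75 h) and at t3 (7.75 to 8.75 h). Each group held 4 arrays except wild-type GFP− cells at t3, which held 3, and the study's methods call the samples independent. The methods also state that GFP+ and GFP− cells were both collected in each sorting run. All embryos carried the same reporter insertion, so the controls carry the transgene too, and the *ato* enhancer that drives it is also active outside the chordotonal lineage, for example in the larval eye precursors. The mutant came from a single backcrossed line and gave far fewer GFP+ cells. On 1 array (wild-type GFP− cells at t2, replicate 4) the sample title and its source text name opposite classes. It was read as GFP− after the title, and results at t2 are also given without it. In such bulk samples fewer cells of a type and less RNA per cell cannot be told apart.

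All values are log2 intensities that were quantile-normalised before deposition, so a difference of 1 is a doubling relative to the whole array and not per cell. The *ato* probe set followed the sort, at 11.54 in GFP+ and 7.32 in GFP− mutant cells, at 12.31 and 8.68 in wild-type cells at t1, at 12.49 and 8.69 at t2, and at 8.10 and 6.41 at t3. The array count limits the precision of every value. A change was called at 1.5-fold or more with an adjusted p of at most 0.01 in limma, and a looser count used the same adjusted p at any fold.

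The family as a whole sat high and moved little. Of the 40 genes, 34 had a mean log2 intensity above 10, a limit set after the values were seen, and the other 6 (RpL10Aa, RpL22-like, RpL37-2, RpS10a, RpS19b and RpS28a) had means of 4.12 to 6.90. The median of the 34 bright genes on each array lay between 13.32 and 13.49 in mutant GFP+ cells, against 13.55 to 13.57 in mutant GFP− cells. In wild-type embryos it lay between 13.42 and 13.54 in GFP+ cells and between 13.38 and 13.61 in GFP− cells at t1. The corresponding ranges were 13.56 to 13.61 and 13.63 to 13.71 at t2, and 13.50 to 13.64 and 13.60 to 13.71 at t3. In the deposited values the classes therefore did not overlap in the mutant and at t2, and overlapped at t1 and t3. The t2 gap depended on the scaling. The other probe sets among the brightest 5% had array medians of 11.61 to 11.74 in GFP+ and 11.74 to 11.76 in GFP− cells at t2. Centred on these medians, the classes overlapped at t2 and stayed apart in the mutant. Over 31 arrays the 561 pairs of bright genes had a median Pearson r of 0.52, and of 0.44 once each group mean was taken out, which is a description across arrays that share their normalisation. RpL32, RpLP1 and RpL40 followed the other members most closely, with median r of 0.78, 0.75 and 0.73, whereas RpL15 and RpS20 had −0.11 and −0.06.

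**Figure D1:**
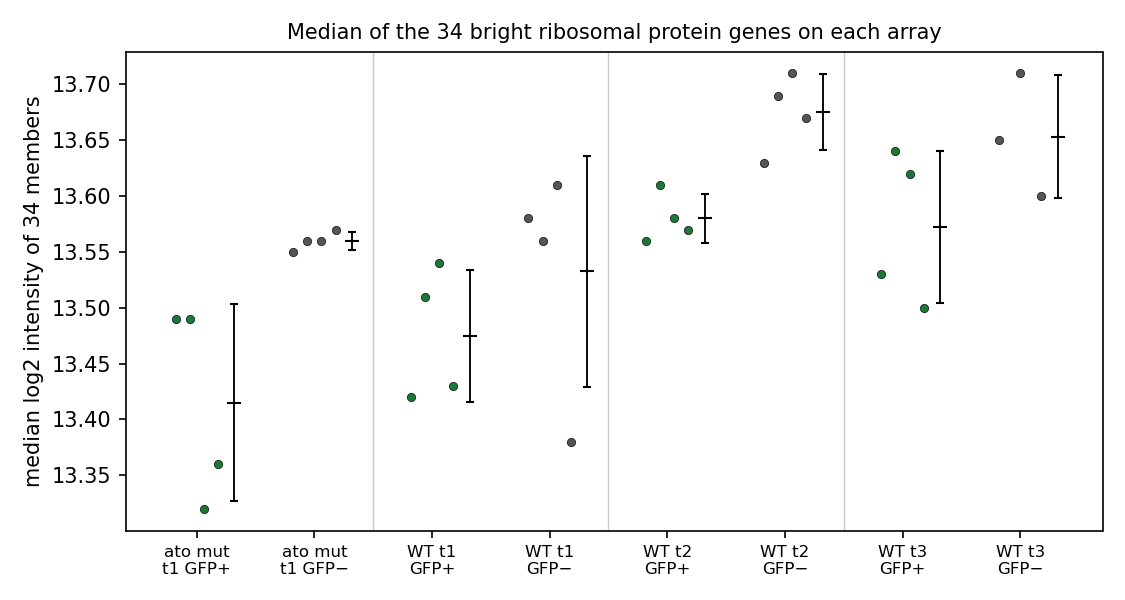
Median log2 intensity of the 34 bright ribosomal protein genes on each array (vertical axis) in the 8 groups (horizontal axis), with each group's mean and SD beside the points. In the deposited values GFP+ arrays lie below GFP− arrays without overlap in the ato mutant (13.32 to 13.49 against 13.55 to 13.57) and at t2 (13.56 to 13.61 against 13.63 to 13.71). Centred on other bright probe sets, the classes overlap at t2 and stay apart in the mutant.

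The first comparison asks how cells of the *ato* lineage differ from the rest of the embryo. Few ribosomal protein genes were called, 1 to 3 of 40 in each of the 4 comparisons, and RpLP0-like alone was called in all of them. The family's median in GFP+ cells lay slightly below that in GFP− cells in the deposited values, and at t1 its sign depended on the scaling. The median GFP+ minus GFP− difference of the 40 genes was −0.06 at t1, −0.10 at t2, −0.09 at t3 and −0.11 in the mutant on the log2 scale, beside 0.02, 0.02, 0.01 and 0.04 over all probe sets. The remaining 905 probe sets among the brightest 5% of the array had medians of −0.05, −0.03, −0.02 and −0.02. At t1 the family's median thus lay close to that of other bright probe sets, and it turned to 0.01 under cyclic loess scaling and under centring on those bright probe sets. The t2 median was −0.09 without the array whose labels conflict. The median kept its sign in the other comparisons, at −0.07 and −0.05 at t2, −0.06 and −0.06 at t3, and −0.09 and −0.14 in the mutant under these 2 scalings.

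Counts of genes by direction varied with the scaling too. The GFP+ mean was the lower one for 38 of 40 genes at t1 (44.1% of all probe sets), 40 at t2 (45.5%), 38 at t3 (45.9%) and 37 in the mutant (38.5%). Under cyclic loess these counts were 19 (47.7% of all probe sets), 34 (50.4%), 36 (51.1%) and 34 (50.6%). Under bright centring they were 18 (26.1%), 33 (31.6%), 37 (39.8%) and 38 (45.7%). All GFP+ arrays lay below all GFP− arrays for 4 genes at t1 (10.6% of all probe sets), 22 at t2 (12.4%), 4 at t3 (9.12%) and 25 in the mutant (13.3%). At t2 this count depended on the scaling and was 9 (13.4% of all) under cyclic loess and 8 (9.94%) under bright centring. In the mutant it was 15 (15.6%) and 28 (14.1%). Among the 34 bright genes the large and small subunits had medians of −0.07 and −0.06 at t1, −0.10 and −0.10 at t2, −0.08 and −0.08 at t3, and −0.13 and −0.11 in the mutant.

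At the 1.5-fold limit, 1 gene was lower in GFP+ cells at t1 (3.61% of all probe sets), 1 at t2 (4.2%), 3 at t3 (3.22%) and 1 in the mutant (6.12%). By limma 0 genes were called higher at any time (2%, 2.54%, 2.25% and 4.65% of all probe sets at t1, t2, t3 and in the mutant). At an unadjusted p under 0.05, again 0 were higher in each (11.9%, 13.8%, 11.3% and 19.8% of all), and 6, 13, 9 and 17 were lower (12.7%, 13.6%, 14.2% and 14.4%). At t3 the count of called genes rested on single arrays and was 0 without GFP− replicate 2 or GFP+ replicate 4, and 4 without GFP− replicate 3 or GFP+ replicate 3. The share of all probe sets is not given for these fits. At an adjusted p of at most 0.01 and any fold, 1 gene was lower at t1 (6.54% of all), 2 at t2 (7.83%), 3 at t3 (7.22%) and 5 in the mutant (10.2%). As shares of the 40 genes these are 2.5%, 5.0%, 7.5% and 12.5%, below the shares of all probe sets at t1 and t2 and slightly above them at t3 and in the mutant.

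**Figure D2:**
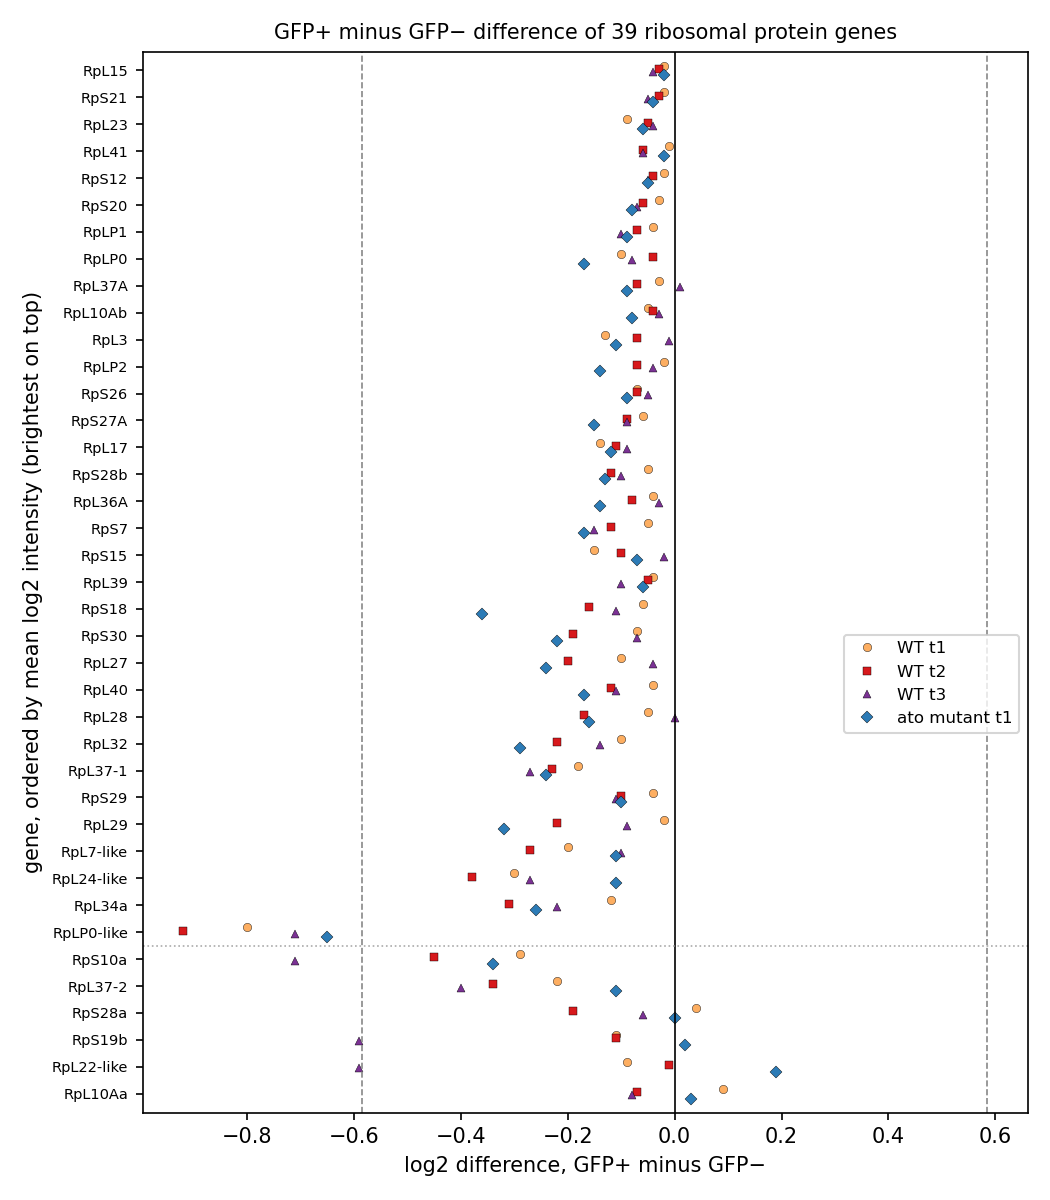
GFP+ minus GFP− log2 difference (horizontal axis) of 39 of the 40 genes, ordered down the page by mean intensity with the brightest on top, in wild type at t1, t2 and t3 and in the ato mutant at t1. Dashed lines mark 1.5-fold and the dotted line separates the 6 genes with a mean below 10. RpLP0-like passes the limit in all 4 comparisons and most other genes lie just below 0, a direction that at t1 depended on the scaling.

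Among the genes above 10 the brightest had the smaller differences. The 18 genes with a mean above 13.5 had differences of −0.12 to −0.03 at t2 (median −0.07) and of −0.17 to −0.02 in the mutant (median −0.09). The 13 genes between 10 and 13.5 that are not named -like had −0.31 to −0.05 at t2 (median −0.17) and −0.36 to −0.06 in the mutant (median −0.24). In these comparisons the order did not go on to the 6 genes below 10, whose medians were −0.15 at t2 and 0.01 in the mutant. It did go on at t1, with medians of −0.04 above 13.5, −0.07 between 10 and 13.5 without the -like genes, and −0.10 below 10. The corresponding medians at t3 were −0.05, −0.10 and −0.49. The standard errors of the genes between 10 and 13.5 were also larger than those of the brightest, with medians of 0.09 against 0.05. The highest value of the whole table was 14.5, so the brightest genes sit near the top of the scale, where an array can compress a difference. The part of this limit in the small differences was not tested.

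RpLP0-like, which resembles the stalk protein RpLP0 and whose yeast counterpart is an assembly factor of the large subunit, was the clearest exception. Its log2 intensity was 10.50, 10.57, 10.36 and 10.34 in mutant GFP+ cells, against 11.10, 11.05, 11.05 and 11.17 in mutant GFP− cells. At t1 it was 10.45, 10.54, 10.63 and 10.60 in wild-type GFP+ cells and 11.36, 11.41, 11.37 and 11.28 in GFP− cells. At t2 it was 10.69, 10.88, 10.69 and 10.83 in GFP+ cells and 11.63, 11.72, 11.74 and 11.69 in GFP− cells. Every GFP+ array lay below every GFP− array in these 3 comparisons, and the t2 difference was the same −0.92 without the array whose labels conflict. At t3 it was 9.70, 9.91, 10.31 and 9.43 in GFP+ cells and 10.29, 10.81 and 10.54 in GFP− cells, where 1 GFP+ array just reached the lowest GFP− array. The difference was −0.65 in the mutant (SE 0.11, limma adjusted p = 2.5e-05), −0.80 at t1 (SE 0.11, adjusted p = 2.3e-06), −0.92 at t2 (SE 0.11, adjusted p = 1.6e-07) and −0.71 at t3 (SE 0.12, adjusted p = 8.1e-05). The t3 call is the least firm, since a fit of only the t3 groups gave the same −0.71 with an adjusted p of 0.079. With the replicate number as a block the t3 difference was −0.58, just short of 1.5-fold. The difference in the mutant minus that in wild type at t1 was 0.15 (SE 0.16, adjusted p = 0.71), so a change of the RpLP0-like depletion with *ato* was not detectable.

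RpLP0 itself, with RpLP1 and RpLP2 a protein of the ribosomal stalk, did not move in this way. The RpLP0 difference was −0.17 in the mutant (SE 0.05, adjusted p = 0.013) and −0.10, −0.04 and −0.08 at t1, t2 and t3. RpLP1 had −0.09, −0.04, −0.07 and −0.10 in the same order and RpLP2 −0.14, −0.02, −0.07 and −0.04, and neither passed in any of them.

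RpL24-like and RpL7-like, whose yeast counterparts are also assembly factors of the large subunit, gave smaller differences. RpL24-like was 11.69, 11.88, 11.75 and 11.83 in GFP+ cells at t2 and 12.04, 12.14, 12.23 and 12.24 in GFP− cells, which do not overlap. Its difference was −0.38 at t2 (SE 0.12, adjusted p = 0.018), −0.30 at t1, −0.27 at t3 and −0.11 in the mutant, and none passed. RpL7-like was 12.38, 12.50, 12.44 and 12.48 in GFP+ cells at t2, against 12.66, 12.77, 12.78 and 12.68 in GFP− cells. It fell by 0.27 at t2 (SE 0.06, adjusted p = 0.0019), below the 1.5-fold limit, and had −0.20, −0.10 and −0.11 at t1, t3 and in the mutant.

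RpL32, a protein of the large subunit, was the control gene against which the study quantified RNA by RT-PCR. It was 12.37, 12.46, 12.04 and 12.24 in mutant GFP+ cells and 12.54, 12.50, 12.56 and 12.65 in mutant GFP− cells. At t2 it was 12.85, 12.99, 12.95 and 12.91 in GFP+ cells and 13.01, 13.13, 13.23 and 13.20 in GFP− cells. In both comparisons the classes were apart and the difference did not pass, at −0.29 in the mutant (SE 0.11, adjusted p = 0.041) and −0.22 at t2 (SE 0.11, adjusted p = 0.18). The RpL32 difference was −0.10 at t1 and −0.14 at t3, where the arrays of both classes overlapped.

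**Figure D3:**
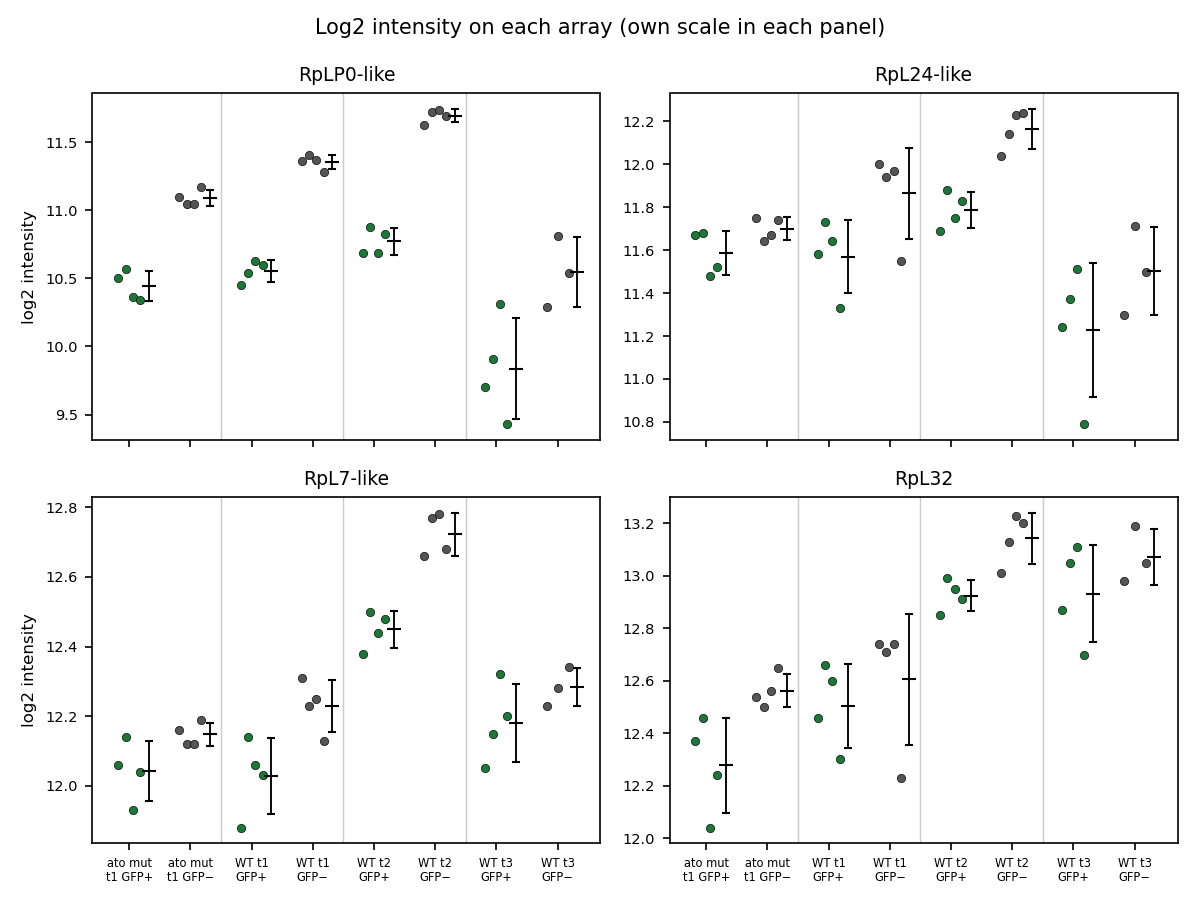
Log2 intensity on each array (vertical axis, its own scale in each panel) of RpLP0-like, RpL24-like, RpL7-like and RpL32 in the 8 groups, with group means and SD. RpLP0-like shows the widest gap between GFP+ and GFP− arrays (10.69 to 10.88 against 11.63 to 11.74 at t2).

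In the mutant 4 further genes passed on adjusted p alone, RpS18, RpL29 and RpL27 among them. RpS18, a protein of the small subunit head, was 12.73, 12.90, 12.39 and 12.60 in GFP+ cells and 12.94, 12.99, 13.07 and 13.07 in GFP− cells, a difference of −0.36 (SE 0.09, adjusted p = 0.0033). RpL29 differed by −0.32 (adjusted p = 0.0046) and RpL27 by −0.24 (adjusted p = 0.0016). These 3 showed no overlap between the classes. RpL29 missed the limit in 5 of 8 fits that left out 1 array, RpS18 in 4 and RpL27 in 0. In a fit of only the mutant groups the adjusted p of these genes was 0.011 to 0.018. In wild type at t1 RpS18 had −0.06, RpL29 −0.02 and RpL27 −0.10, but by limma's test of the difference of differences 0 of 40 members were called higher (1.83% of all probe sets) or lower (3.6%). At an unadjusted p under 0.05, 0 were higher (12.8%) and 3 lower (8.78%), with RpL29 and RpS18 among them at −0.30 and −0.30.

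Among the dim genes are copies that are used mainly in germ cells in the fly. RpS19b was 6.10, 6.31, 6.30 and 6.13 in GFP+ cells at t3, against 6.96, 7.14 and 6.31 in GFP− cells. RpL22-like was 4.33, 4.22, 4.44 and 4.25 in GFP+ cells at t3 and 5.01, 5.23 and 4.45 in GFP− cells. In both genes 2 of 3 GFP− arrays stood clear of the GFP+ arrays and GFP− replicate 3 stood beside them. The difference was −0.59 for RpS19b (SE 0.14, adjusted p = 0.0029) and −0.59 for RpL22-like (SE 0.12, adjusted p = 0.00063). Both calls rest on few arrays, since without GFP− replicate 2 they were −0.42 (adjusted p = 0.067 for RpS19b and 0.022 for RpL22-like), and RpS19b also missed without GFP− replicate 1 (adjusted p = 0.029) and without GFP+ replicates 1 or 4 (adjusted p = 0.011 each). In a fit of only the t3 groups the adjusted p was 0.099 for RpS19b and 0.080 for RpL22-like. RpS10a, another copy of restricted use, was 4.84, 4.86, 5.53 and 4.88 in GFP+ cells at t3 and 5.96, 6.01 and 5.25 in GFP− cells, so the classes overlapped, and its difference of −0.71 (SE 0.20, adjusted p = 0.010) lay just outside the limit. In the mutant RpL22-like was the 1 member whose GFP+ arrays (4.32, 4.58, 4.35 and 4.34) all lay above the GFP− arrays (4.24, 4.17, 4.29 and 4.15), where 16.1% of all probe sets did so, and its difference of 0.19 did not pass. All RpL22-like values in the mutant and in GFP+ cells at t3 lay below the column medians of 4.71 to 4.83. Whether the gene was expressed there was not tested.

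A germ-cell marker, zpg, was lower in GFP+ cells too. Of 4 germ-line markers, vas and zpg were measured, and their summed log2 level was 5.60 to 6.12 in GFP+ cells and 6.53 to 7.45 in GFP− cells at t3. zpg, a gap junction protein of germ cells, was 4.91, 4.76, 5.47 and 4.61 in GFP+ cells and 7.24, 6.98 and 6.08 in GFP− cells, with its lowest GFP− value on replicate 3 as for RpS19b, RpL22-like and RpS10a. zpg passed as lower in GFP+ cells at t3 (−1.83, adjusted p = 3e-08), and vas had −0.15 (adjusted p = 0.37). The vas values in GFP− cells were 4.61, 4.84 and 4.62, with the lowest on replicate 1. zpg also passed as lower at t1 (−1.46), at t2 (−0.93) and in the mutant (−1.09), where RpS19b and RpL22-like were not called. Their part in the 3 ribosomal genes was not tested.

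The second comparison sets mutant against wild-type cells at t1. Few members passed between genotypes, and the size of the median depended on the scaling. The median difference was −0.05 in GFP+ cells and −0.01 in GFP− cells, beside −0.01 and −0.03 over all probe sets. In GFP+ cells it was −0.11 under both cyclic loess and bright centring. The mutant mean was the lower one for 27 of 40 genes in the deposited values (52.4% of all probe sets). Under cyclic loess and bright centring it was the lower one for 35 (51.4%) and 36 (68.6%). At any fold 5 (5.73% of all probe sets) and 4 (6.87%) then passed as lower in GFP+ cells and 0 as higher (5.4% and 4.58%). In GFP− cells the median was −0.04 under cyclic loess and 0.03 under bright centring. A single gene was called lower in GFP+ cells (2.32% of all probe sets) and 0 higher (2.95%). In GFP− cells 0 were called lower (3.36%) and 0 higher (4.79%) by limma, with 5 lower (18.5%) and 1 higher (12.7%) at an unadjusted p under 0.05. In GFP+ cells 9 were lower (11.8%) and 1 higher (12.3%) at that p.

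The count of genes called lower in GFP+ cells was 0 without mutant GFP+ replicates 3 or 4 and without wild-type GFP+ replicate 3, and 1 in the other 5 fits that left out 1 array. RpL17, on the large subunit near the exit tunnel, was 13.70, 13.72, 13.71 and 13.67 in mutant GFP+ cells and 13.46, 13.52, 13.54 and 13.47 in wild-type GFP+ cells. RpL17 rose by 0.21 in GFP+ cells (SE 0.05, adjusted p = 0.0036) and by 0.18 in GFP− cells (SE 0.05, adjusted p = 0.0066), both under 1.5-fold. Under cyclic loess its adjusted p was 0.037 in GFP+ and 0.032 in GFP− cells, and it missed the limit in 4 of 8 fits without 1 array in GFP+ cells and in 8 of 8 in GFP− cells. RpL37A fell by 0.21 in GFP+ cells (adjusted p = 0.0022), and RpL37-2 by 0.41 in GFP− cells (adjusted p = 0.0080), where it missed the limit in 6 of 8 fits without 1 array. At any fold 2 genes were lower and 1 higher in each class, beside 5.02% and 5.7% of all probe sets in GFP+ cells and 10.6% and 7.98% in GFP− cells. With 1 mutant line, the *ato* mutation and the rest of that line's background cannot be told apart. The mesoderm markers lmd, meso18E and twi passed as lower in mutant than in wild-type GFP+ cells, and none did in GFP− cells. The 3′ minus 5′ log2 signal of the eIF-4a control, a sign of RNA quality, differed too. It was 3.85 to 4.29 in mutant and 4.41 to 4.87 in wild-type GFP+ cells, and 3.71 to 3.96 and 4.32 to 4.87 in GFP− cells. That of GAPDH overlapped in both classes. That of Act5C went the other way in GFP+ cells, at 5.87 to 6.12 in mutant and 5.47 to 5.87 in wild type, and overlapped in GFP− cells. The part of these differences was not tested.

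The third comparison follows wild-type cells with age. Between t1 and t2 most members had a slightly higher mean in both classes. The median difference was 0.14 in GFP+ cells and 0.19 in GFP− cells, beside 0.04 and 0.05 over all probe sets. It was 0.16 and 0.22 under cyclic loess and 0.24 and 0.31 under bright centring. The t2 mean was the lower one for only 5 of 40 genes in each class, against 40.4% of all probe sets in GFP+ and 39.1% in GFP− cells. Without the array whose labels conflict the GFP− median was 0.17. At any fold 9 genes passed as higher in GFP+ cells (10.6% of all probe sets) and 14 in GFP− cells (12.7%), and all t2 arrays lay above all t1 arrays for 19 (16.1%) and 27 (18.9%). The count that passed as higher was 10 (12% of all) and 21 (14.5%) under cyclic loess and 17 (19.3%) and 30 (26.1%) under bright centring. Genes between 10 and 13.5 had medians of 0.24 in GFP+ and 0.33 in GFP− cells, whereas genes above 13.5 had 0.04 and 0.07. Signs of RNA quality moved with this step in GFP+ cells. The GAPDH control's 3′ end minus its 5′ end, a log2 measure of transcript completeness, was 3.84 to 4.02 in GFP+ cells at t2, against 4.14 to 4.38 at t1, and that of eIF-4a was 3.84 to 4.30 against 4.41 to 4.87. That of Act5C overlapped in GFP+ cells, at 5.15 to 5.64 at t2 against 5.47 to 5.87 at t1. In GFP− cells GAPDH, eIF-4a and Act5C all overlapped between the times. The part of these controls in the differences was not tested.

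At the 1.5-fold limit 0 genes were higher at t2 in GFP+ cells (3.29% of all) and 2 in GFP− cells (4.37%), and 1 was lower in each (7.45% and 8.81%). At an unadjusted p under 0.05, 17 (20.9% of all) and 24 (24.2%) were higher and 1 (17.6%) and 1 (18.7%) lower. RpL34a, a large subunit protein, was 11.21, 11.32, 11.17 and 11.31 in GFP+ cells at t2, against 10.76, 10.80, 10.77 and 10.52 at t1. In GFP− cells it was 11.48, 11.53, 11.66 and 11.59 at t2 and 10.94, 10.98, 10.95 and 10.47 at t1. It rose by 0.54 in GFP+ cells (SE 0.09, adjusted p = 1.7e-05) and by 0.73 in GFP− cells (SE 0.09, adjusted p = 8.4e-08). RpL37-2, a dim copy of RpL37-1, rose by 0.52 (adjusted p = 0.00059) and by 0.64 (adjusted p = 3.5e-05). RpL7-like rose by 0.43 (adjusted p = 2.8e-06) and 0.50 (adjusted p = 1.7e-07), and RpL32 by 0.42 (adjusted p = 0.0020) and 0.54 (adjusted p = 1e-04). RpL27, RpL28, RpL17, RpS15 and RpS26 passed in both classes with smaller differences (0.19 to 0.38), and RpL29, RpL40, RpLP1, RpS30 and RpL10Aa in GFP− cells alone, for which the difference between classes was not called (adjusted p 0.70 to 0.95). The other probe set of RpS30 passed in both classes, at 0.54 and 0.46. Replicate 4 at t1 was low in both classes for several members, RpL32 and RpL34a among them.

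RpS10a fell at both steps. Its mean was 7.42 ± 0.18 in GFP+ cells at t1, 6.55 ± 0.23 at t2 and 5.03 ± 0.34 at t3 (SD, n = 4 each). In GFP− cells it was 7.71 ± 0.19 (n = 4), 7.00 ± 0.31 (n = 4) and 5.74 ± 0.43 (SD, n = 3). RpS10a fell by 0.87 in GFP+ cells (SE 0.18, adjusted p = 0.00032) and by 0.71 in GFP− cells (SE 0.18, adjusted p = 0.0023) between t1 and t2, and the GFP− step did not pass without GFP− replicate 1 of either time (adjusted p = 0.012 without that of t1 and 0.019 without that of t2). Between t2 and t3 it fell by 1.53 (SE 0.18, adjusted p = 1.9e-08) and by 1.26 (SE 0.20, adjusted p = 2.8e-06). It was the member with the widest span over the groups of wild-type cells, and its levels at t3 did not overlap those at t2 in either class.

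Between t2 and t3 the family's median was near 0, while RpLP0-like, RpL24-like, RpL7-like and the dim RpL37-2 fell. The median difference was −0.05 in GFP+ cells and −0.06 in GFP− cells, beside −0.11 and −0.11 over all probe sets, and cyclic loess turned it to 0.04 and 0.06. In GFP+ cells 3 genes were called lower (9.62% of all) and 0 higher (12.8%), and in GFP− cells 4 lower (8.59%) and 1 higher (12.1%). At an unadjusted p under 0.05, 6 genes were higher (21.6% of all) and 13 lower (37.7%) in GFP+ cells, and 4 higher (21.1%) and 14 lower (35.4%) in GFP− cells. RpLP0-like fell by 0.94 in GFP+ cells (SE 0.11, adjusted p = 2.2e-08) and by 1.15 in GFP− cells (SE 0.12, adjusted p = 2.4e-09), and a change of the gap between the classes was not detectable (0.21, SE 0.17, adjusted p = 0.60). RpL24-like fell by 0.56 (adjusted p = 0.00013) and by 0.66 (adjusted p = 4.7e-05), and RpL7-like by 0.27 (adjusted p = 0.00066) and by 0.44 (adjusted p = 3.2e-06). RpL37-2 fell by 0.82 (adjusted p = 4.8e-07) and by 0.76 (adjusted p = 6.5e-06). RpS19b rose by 0.58 in GFP+ cells (SE 0.13, adjusted p = 0.00040) and by 1.06 in GFP− cells (SE 0.14, adjusted p = 1.9e-07).

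At any fold 9 genes passed as lower and 3 as higher in GFP+ cells (23.3% and 18.3% of all probe sets), and 10 and 3 in GFP− cells (20.5% and 17.5%). This balance depended on the scaling. Under cyclic loess 4 were lower and 8 higher in GFP+ cells (14.8% and 22% of all), and 6 and 4 in GFP− cells (13% and 20.5%). Under bright centring 7 were lower and 3 higher in GFP+ cells (19.2% and 18.9%), and 6 and 4 in GFP− cells (14.6% and 18.9%). Several markers of other cell types rose in GFP+ cells over the same step. The mesoderm genes meso18E, lmd and twi rose by 2.67, 1.91 and 0.79. Of the genes listed as haemocyte markers, which need not be particular to haemocytes, srp rose by 2.61, PPO2 by 2.88 and gcm by 1.49, whereas crq (0.15) and Hml (0.11) did not pass. In GFP− cells PPO2 rose by 3.37, and srp (0.45), meso18E (0.02), lmd (−0.22), gcm (−0.33) and Hml (−0.13) did not pass. There twi (−1.18) and crq (−0.67) passed as lower. The part of these markers was not tested. RpL3, at the peptidyl transferase centre, rose by 0.24 in GFP+ cells (adjusted p = 5e-05) and by 0.18 in GFP− cells (adjusted p = 0.0031). For the change of the GFP+ to GFP− difference over time, limma called 0 of 40 members higher (0.149% of all probe sets) or lower (0.229%) between t1 and t2, and 0 higher (2.36%) or lower (1.74%) between t2 and t3. At an unadjusted p under 0.05, 0 were higher in either step (4.37% and 8.74% of all), and 0 (4.29%) and 2 (9.36%) were lower. The t2 groups stand in both steps, so the steps are not independent.

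**Figure D4:**
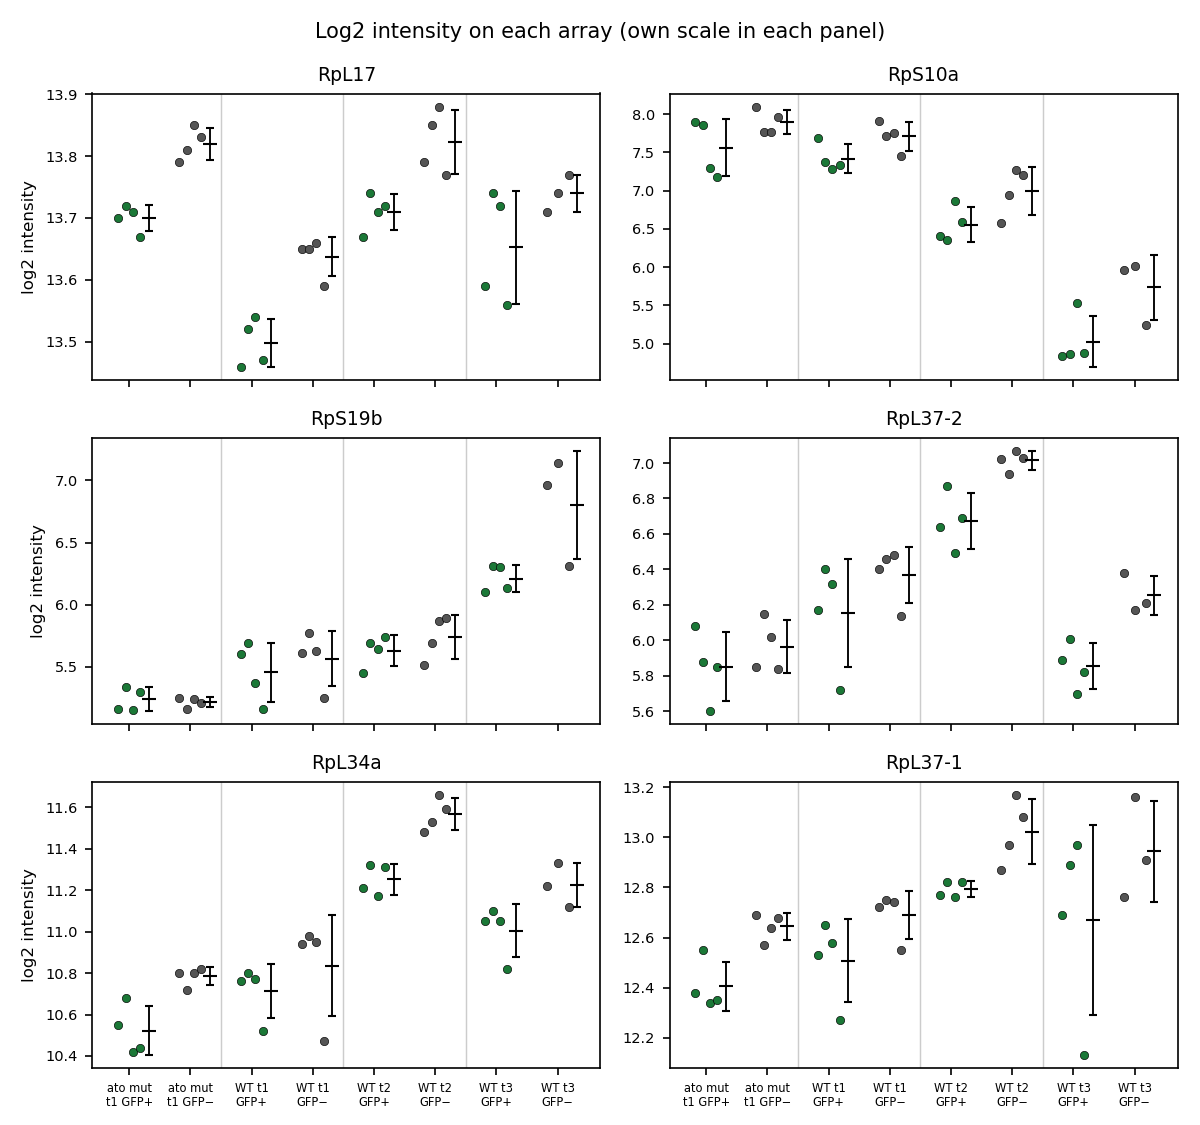
Log2 intensity on each array (vertical axis, its own scale in each panel) of RpL17, RpS10a, RpS19b, RpL37-2, RpL34a and RpL37-1 in the 8 groups, with group means and SD. RpS10a falls at each age and RpS19b is highest in GFP− cells at t3 (6.31 to 7.14).

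Several genes have a near copy on the array, and signal from a copy through shared probe sequence was not told apart here. RpL37-1 and RpL37-2 had GFP+ minus GFP− differences of −0.18 and −0.22 at t1, −0.23 and −0.34 at t2, −0.27 and −0.40 at t3 and −0.24 and −0.11 in the mutant, and none passed. The pairs RpL10Aa and RpL10Ab, and RpS28a and RpS28b, had 0.09 and −0.05, and 0.04 and −0.05, at t1, and again none passed in any of the 4 comparisons. RpL3, RpS7, RpS29 and RpS30 had more than 1 probe set. A further probe set of RpL3 was 8.76, 8.73, 8.86 and 8.97 in GFP+ cells at t1 and 9.55, 9.35, 9.35 and 9.69 in GFP− cells, a called difference of −0.66 (SE 0.11, adjusted p = 4.6e-05), whereas its brightest probe set had −0.13 and did not pass. The third RpL3 probe set had −0.36 (adjusted p = 0.022). The further RpL3 probe set also fell by 1.06 in GFP+ and by 1.36 in GFP− cells between t1 and t2, when the brightest had no call. The second RpS7 probe set rose by 0.66 in GFP− cells between t1 and t2 (adjusted p = 1.1e-07).

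Other gene lists of the translation machinery were read on the same arrays, and the ribosome biogenesis factors had medians further from 0 than the ribosomal proteins. Of 19 ribosome biogenesis factors, which process and assemble ribosomal RNA in the nucleolus, 17 passed as lower in GFP+ cells at t1, 16 at t2, 13 at t3 and 14 in the mutant, and 0 as higher. Over all probe sets 6.54%, 7.83%, 7.22% and 10.2% passed as lower, and 4.05%, 5.84%, 3.86% and 11.2% as higher. Their medians were −0.57, −0.58, −0.37 and −0.39, and all 19 had a lower GFP+ mean in each comparison. Polr1B, the second subunit of RNA polymerase I, fell by 0.84 at t1 (adjusted p = 1.3e-08), mbm by 0.84 (adjusted p = 6.9e-08) and Surf6 by 0.68 (adjusted p = 5.4e-06). Under cyclic loess and bright centring the t1 medians were −0.51 and −0.50, and all 19 stayed lower except at t3, where 18 did. RpLP0-like had −0.80 at t1, within the range of these factors (−0.84 to −0.17) and outside that of the other bright members (lowest −0.30). The range of the factors also takes in RpL24-like (−0.30), RpL7-like (−0.20) and RpL37-1 (−0.18), and the ranges are given for t1 alone.

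Of 15 translation initiation factors 3, 2, 1 and 3 passed as lower at t1, t2, t3 and in the mutant, with medians of −0.11, −0.08, −0.04 and −0.08. The shares of all probe sets that passed as lower, which stand beside every list here, were 6.54%, 7.83%, 7.22% and 10.2%. eIF6, which binds the large subunit during its assembly, had the largest of them at −0.59 at t1 (adjusted p = 0.00025) and −0.74 at t2 (adjusted p = 7.1e-06). Of 4 elongation factors 2, 2, 2 and 1 passed as lower, eEF1delta among them in all 4 comparisons. Rack1, a small subunit protein outside the symbol rule, had −0.08, −0.08, −0.21 and −0.14 and did not pass. Of 69 mitochondrial ribosomal protein genes, which serve the ribosome inside mitochondria, 23, 42, 63 and 29 passed as lower, with medians of −0.29, −0.37, −0.52 and −0.25. The same arrays carry all of these lists, and the lists were not tested against each other. They were chosen with earlier results of these data known.

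**Figure D5:**
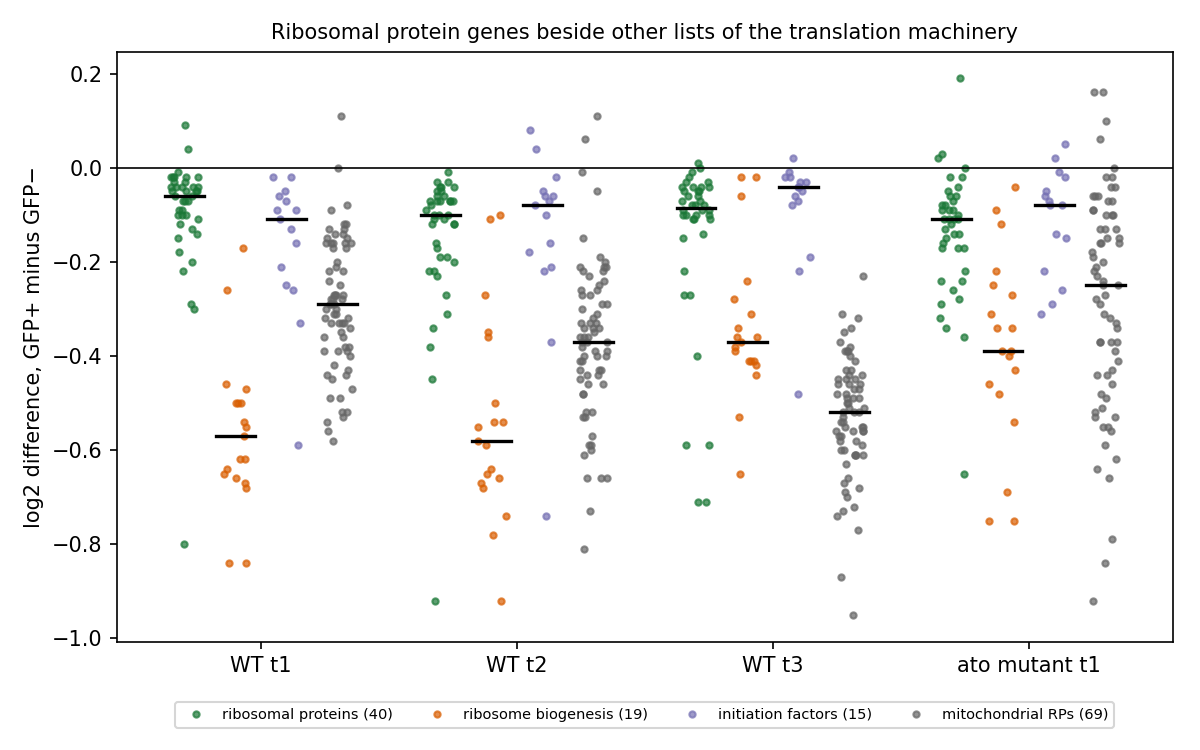
GFP+ minus GFP− log2 difference (vertical axis) of each gene of 4 lists in wild type at t1, t2 and t3 and in the ato mutant at t1, with a bar at each list's median. The ribosomal proteins (medians −0.06, −0.10, −0.09 and −0.11) lie closer to 0 than the ribosome biogenesis factors (−0.57, −0.58, −0.37 and −0.39) and the mitochondrial ribosomal proteins (−0.29, −0.37, −0.52 and −0.25).

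Other cell types and the RNA itself also differed between the sorted classes. All 3 measured mesoderm markers (lmd, meso18E and twi) passed as lower in GFP+ cells in all 4 comparisons, with a summed log2 level of 6.44 to 6.89 in GFP+ and 11.72 to 12.08 in GFP− cells of the mutant and of 7.82 to 8.59 and 11.58 to 11.77 at t1. At t2 it was 8.47 to 8.93 and 11.88 to 12.08, and at t3 10.13 to 11.51 and 11.38 to 11.98, which overlap. Of 5 haemocyte markers 4, 4, 2 and 4 passed as lower at t1, t2, t3 and in the mutant, with a summed level at t1 of 9.61 to 10.25 in GFP+ and 12.08 to 12.34 in GFP− cells, and at t3 of 11.70 to 12.53 and 12.73 to 12.77. The 3′ minus 5′ log2 signal of GAPDH averaged 3.97 in GFP+ and 4.99 in GFP− cells of the mutant, 4.27 and 4.50 at t1, 3.96 and 4.29 at t2, and 4.03 and 4.42 at t3. For Act5C it was 5.99 and 5.69 in the mutant and 5.32 and 5.60 at t2, so the controls did not run one way. The part of these differences in the ribosomal protein values was not tested.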

How the data were processed

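The deposited values are log2 intensities made by the authors with RMA and quantile normalisation (AffyPLM) from 31 arrays. The labels describe single-round labelling and the methods a 2-cycle protocol, and which was used is not settled here. No raw intensities were used, so background correction and slide were not varied. Of 18952 probe sets 183 controls were left out and 18769 tested, of which 13647 name 1 gene, 402 several and 4720 none. Column medians lie between 4.71 and 4.83.

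Group means were compared in 1 model of 8 groups over all arrays with limma 3.58.1 in R 4.3.3, with Benjamini-Hochberg adjustment over all probe sets within each comparison. The methods' limits of 1.5-fold and 0.01 were used. Steps were tested on simulated data. Genes named are called members with the largest changes, RpL32, paralogue pairs, members whose probe sets disagree and list members by count. One member is counted but not reported by name here. The members and lists were chosen with earlier results of these data known.

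Replicate numbers are shared by GFP+ and GFP− samples. The deviations of same-numbered arrays correlated at 0.213 to 0.299 in the mutant, above 0.1 in every pair, so that these numbers pair the samples, and at 0.068 to 0.327 at t1, −0.019 to 0.065 at t2 and 0.037 to 0.558 at t3. The main model holds no block, and a replicate block is among the alternatives, with other scalings, array weights, trended variances, filters and arrays left out.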

Additional observations from a re-analysis of the deposited data

Results flagged for a closer look

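In 6 of 84 checks of named members, 1 array stood apart from the rest of its group of 4 by more than Dixon's 95% limit, where chance alone flags about 1 in 20. In 4 of the 6 the array was replicate 4 of wild type at t1. RpL32 was 12.23 on GFP− replicate 4 at t1, against 12.71 to 12.74 on the other arrays of its group. RpL24-like was 11.55 on the same array, against 11.94 to 12.00. RpL34a was 10.47 on that array, against 10.94 to 10.98, and 10.52 on GFP+ replicate 4 at t1, against 10.76 to 10.80. Without both of these arrays the median GFP+ minus GFP− difference of the members at t1 was −0.09, RpLP0-like had −0.84 (adjusted p = 2.8e-05) and 1 member was called lower, and this alternative was chosen after the values were seen. RpL22-like was 4.58 on mutant GFP+ replicate 2, against 4.32 to 4.35. RpS10a was 5.53 on GFP+ replicate 3 at t3, against 4.84 to 4.88, and that array also had the lowest array weight of all (0.418).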

How the results depend on the processing

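Some median differences changed sign with the scaling. At t1 the GFP+ minus GFP− median was 0.01 under cyclic loess and under centring on other bright probe sets, and between t2 and t3 it was 0.04 in GFP+ and 0.06 in GFP− cells under cyclic loess. Medians near 0 changed sign by less under bright centring, to 0.03 for mutant minus wild-type GFP− cells (−0.01 as deposited) and to −0.02 for the change of the GFP+ to GFP− difference between t2 and t3 (0.01 as deposited). Bright centring moved the t1 to t2 median to 0.24 in GFP+ and 0.31 in GFP− cells and the mutant minus wild-type difference of differences to −0.15. Without the -like genes, members called lower in GFP+ cells were 0 at t1, 0 at t2, 1 at t3 and 0 in the mutant, and 2 in GFP− cells between t2 and t3. At t3 the count was 0 in a fit of only the groups compared and 0 with a replicate block, which uses only paired arrays, and 1 under bright centring and for members above 10. The replicate block changed no other call. Between t1 and t2, members called higher were 1 under cyclic loess and 2 under bright centring in GFP+ cells, and 4 under each in GFP− cells, where the mean over probe sets gave 2 lower. Between t2 and t3 they were 1 in GFP+ cells under cyclic loess, bright centring and array weights, and 2 in GFP− cells under array weights, which also gave 1 lower in the change of the GFP+ to GFP− difference. For members above 10, the t1 to t2 counts were 0 lower in GFP+ cells and 1 higher and 0 lower in GFP− cells, and the t2 to t3 counts 1 lower in GFP+ cells and 0 higher and 2 lower in GFP− cells. With no fold limit the counts were 2 lower at t2 and 5 in the mutant, 1 higher and 2 lower in each class between genotypes, 9 and 14 higher in GFP+ and GFP− cells between t1 and t2, and 3 higher and 9 lower in GFP+ and 3 higher and 10 lower in GFP− cells between t2 and t3. Leaving out single arrays moved the count called lower between 0 and 4 for GFP+ against GFP− cells at t3, 0 and 1 between genotypes in GFP+ cells, 0 and 1 in GFP− cells between t1 and t2, and 0 and 2 for the change of the difference between t2 and t3. It moved the count called higher between 0 and 1 in GFP+ cells at each step, 1 and 3 in GFP− cells between t1 and t2 and 1 and 2 between t2 and t3. Shares of all probe sets are not given beside the counts of this paragraph, so these counts alone do not set the members apart from other genes. The cause was not tested for any of these changes.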

Other observations

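RpS28-like, which the symbol rule leaves out, was noticed after its values were seen. It was 8.50 ± 0.95 in GFP+ cells at t3 (SD, n = 4) and 4.84 ± 0.06 in GFP− cells (SD, n = 3), a difference of 3.66 (SE 0.29, limma adjusted p = 6.9e-10). At t2 it was 5.96 ± 0.39 in GFP+ and 4.04 ± 0.18 in GFP− cells (SD, n = 4 each), a difference of 1.92 (adjusted p = 1.9e-06), and at t1 the difference of 0.47 did not pass (adjusted p = 0.30). RpS28a and RpS28b, the members with the same name, had −0.06 and −0.10 at t3 and did not pass.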
